A study of Mus musculus with 10 samples.

Results

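The nuclear receptor genes of xenobiotic, bile acid and lipid sensing were followed in RNA-Seq of mouse liver. The set holds 10 of the 16647 genes in the count table and was taken as a fixed list of symbols, namely *Nr1i2* (PXR), *Nr1i3* (CAR), *Rxra* (RXR alpha), *Nr1h3* (LXR alpha), *Nr1h2* (LXR beta), *Nr1h4* (FXR), *Nr0b2* (SHP), *Hnf4a* (HNF4 alpha), *Nr5a2* (LRH-1) and *Ppara* (PPAR alpha). All 10 mice were humanized PXR-CAR-CYP3A4/3A7 males (model 11585, Taconic), aged 10 to 15 weeks when a high-fat diet (HFD) was begun. The diet was given for 8 weeks before dosing and during the 4 weeks of dosing. The 5 MI-883 mice received MI-883, a ligand of CAR and PXR, at 5 mg/kg by oral gavage 3 times per week, and the 5 control mice received the vehicle alone (5% DMSO, 5% PEG300 and 90% corn oil) on the same schedule. Each library is the liver of another animal. Which parts of the mouse *Nr1i2* and *Nr1i3* loci the model keeps, and what promoter drives the human receptor genes, is not given in the sources used here.

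PXR and CAR are sensors of drugs and other foreign compounds, and they drive genes of drug oxidation, conjugation and transport. LXRs sense oxysterols, FXR senses bile acids and induces SHP, a receptor without a DNA-binding domain that represses others, and PPAR alpha senses fatty acids. PXR, CAR, LXRs, FXR and PPAR alpha bind DNA as partners of RXR alpha, whereas HNF4 alpha binds as a homodimer and LRH-1 as a monomer, and both are part of the hepatocyte's own transcription programme.

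These receptors, apart from SHP, bind DNA at copies of the half-site AGGTCA, and LRH-1 binds at an extended site. The promoters of the 10 genes were therefore searched on both strands for exact letters. RefSeq (GRCm38.p6) gave 14 promoters of the 10 genes, each running from 250 bases before to 50 bases after a transcription start. The 4 shown here are those of the receptors humanized in this model, *Nr1i2* and *Nr1i3*, and of the bile acid pair *Nr1h4* and *Nr0b2*. They lie at chr16:38294775-38295074 on the minus strand for *Nr1i2*, chr1:171213720-171214019 on the plus strand for *Nr1i3*, chr10:89506609-89506908 on the minus strand for *Nr1h4* and chr4:133553126-133553425 on the plus strand for *Nr0b2*. They are reference mouse sequences read 5′ to 3′, not sequences of these animals, and capitals mark a motif match:
Nr1i2: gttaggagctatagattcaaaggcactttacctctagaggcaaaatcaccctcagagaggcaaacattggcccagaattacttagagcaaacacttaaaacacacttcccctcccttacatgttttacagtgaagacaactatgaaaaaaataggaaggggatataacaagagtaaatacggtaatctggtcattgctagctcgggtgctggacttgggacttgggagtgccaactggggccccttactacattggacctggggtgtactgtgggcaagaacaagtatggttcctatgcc
Nr1i3: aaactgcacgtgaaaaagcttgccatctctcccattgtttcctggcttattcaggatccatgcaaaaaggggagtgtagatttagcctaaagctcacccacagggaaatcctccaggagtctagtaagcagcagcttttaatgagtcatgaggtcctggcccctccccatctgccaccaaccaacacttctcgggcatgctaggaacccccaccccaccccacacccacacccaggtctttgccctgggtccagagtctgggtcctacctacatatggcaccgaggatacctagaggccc
Nr1h4: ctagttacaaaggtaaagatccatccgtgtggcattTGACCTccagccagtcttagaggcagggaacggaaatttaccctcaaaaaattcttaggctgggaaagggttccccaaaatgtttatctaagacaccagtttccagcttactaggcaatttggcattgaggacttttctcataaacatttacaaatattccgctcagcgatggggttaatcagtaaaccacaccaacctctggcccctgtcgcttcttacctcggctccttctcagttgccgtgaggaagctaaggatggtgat
Nr0b2: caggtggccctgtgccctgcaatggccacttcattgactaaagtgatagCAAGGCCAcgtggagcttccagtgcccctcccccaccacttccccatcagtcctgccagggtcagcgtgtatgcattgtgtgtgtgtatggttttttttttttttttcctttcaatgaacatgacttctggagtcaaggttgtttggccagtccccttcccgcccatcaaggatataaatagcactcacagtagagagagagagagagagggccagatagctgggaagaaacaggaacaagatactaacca

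The capitals in the *Nr1h4* promoter are an AGGTCA half-site on the opposite strand, whose leftmost base is 214 bases before the start. This start lies inside the *Nr1h4* gene, which spans 89454234 to 89533645 on chromosome 10, and not at its 5′ end. The capitals in the *Nr0b2* promoter are CAAGGCCA, a form of the LRH-1 site, 201 bases before the start. AGGTCA was present in 3 of the 14 promoters, those of *Nr1h4*, *Nr5a2* and 1 of the promoters of *Rxra*, and in 16.3% of 32851 mouse promoters of the same length. CAAGGCCA was present in 1 of the 14 and in 2.4% of all promoters. CAAGGTCA, which contains AGGTCA, was present in 0 of the 14 and in 1.56% of all, and AGTTCA in 0 of the 14 and in 14.0% of all. Exact pairs of half-sites, AGGTCANAGGTCA (DR1), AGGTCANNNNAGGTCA (DR4) and AGGTCANTGACCT (IR1), were found in 0 of the 14 and in 13, 5 and 3 of all promoters. These counts describe the letters in the windows and not occupancy by any factor.

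No receptor gene passed the test between 5 MI-883-treated and 5 control livers after adjustment over all genes, and *Nr1h3* came nearest, with a lower mean under MI-883. Of 10 genes tested, 0 passed the threshold (edgeR quasi-likelihood test with TMM scaling, Benjamini-Hochberg adjusted p under 0.05 over 13219 genes), against 1.03% of all tested genes. By direction, 0.764% of all tested genes passed as higher and 0.265% as lower in MI-883-treated livers. DESeq2 also called 0 of the 10, against 3.5% of all genes, and 1 receptor gene, *Nr1h3*, had an unadjusted edgeR p under 0.05, as did 15.6% of all tested genes. The ranges of the groups overlapped for 10 of 10 receptor genes, while they did not overlap for 3.98% of all tested genes. The median log2 fold change (MI-883 minus control) was -0.051 over the 10 genes, with 3 values above 0 and 7 below, and 0.0045 over all tested genes. The median size of the change, without its sign, was 0.0759 on the log2 scale over the 10 genes and 0.128 over all tested genes.

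**Figure D1:**
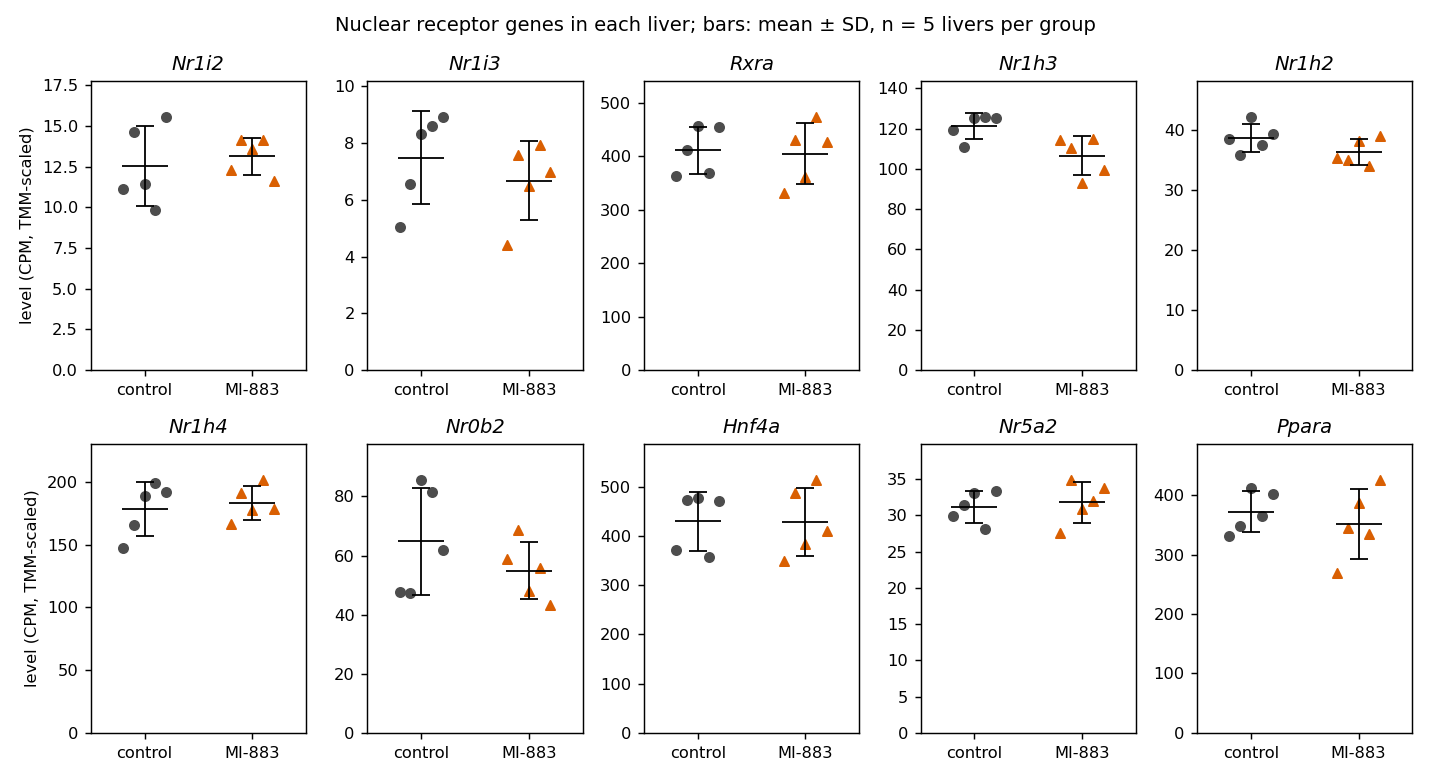
Level of each receptor gene in each liver, in CPM (counts scaled to the library by TMM, vertical axis from 0), for 5 control (circles) and 5 MI-883-treated livers (triangles), with horizontal lines for the mean and bars for the SD. The groups overlap in all 10 panels, and the largest shift of the means relative to the spread is that of *Nr1h3*, from 121 to 107 CPM.

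The xenobiotic sensors are the humanized genes of the model, so their mouse gene models were checked in every liver. *Nr1i2*, which encodes PXR (chromosome 16, 38248349 to 38294849 on GRCm38), was read at 11.1, 14.7, 11.4, 9.82 and 15.5 CPM in the control livers and at 12.3, 14.2, 13.5, 14.1 and 11.6 CPM in the MI-883-treated livers, in replicate order. The MI-883 range lay within the control range, although 5 of 5 MI-883-treated livers were above the control median. The means were 12.5 ± 2.46 (SD, n = 5) and 13.1 ± 1.15 CPM, a log2 fold change of 0.07 (SE 0.125, 95% interval -0.20 to 0.34, edgeR adjusted p = 0.812).

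*Nr1i3*, which encodes CAR (chromosome 1, 171213934 to 171218845), was the receptor gene with the lowest counts, 129 to 297 per liver. It was read at 5.03, 6.56, 8.30, 8.60 and 8.91 CPM in the control livers and at 4.41, 7.57, 6.48, 7.92 and 6.99 CPM in the MI-883-treated livers. The first replicate was the lowest liver in each group, and the groups overlapped, although 0 of 5 MI-883-treated livers were above the control median. The means were 7.48 ± 1.64 and 6.67 ± 1.38 CPM (n = 5), a log2 fold change of -0.16 (SE 0.182, 95% interval -0.56 to 0.23, adjusted p = 0.696).

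The mouse gene models of *Nr1i2* and *Nr1i3* thus collected reads in every liver, 279 to 469 counts in the case of *Nr1i2*. The mRNA of the human receptors was not analysed here, and what share of these reads came from human transcripts was not tested. In GENCODE M21, with the exons of all transcripts joined, the opposite-strand neighbour *Tomm40l* covers 74.9% of the exon bases of *Nr1i3* (3304 of 4414). By their RefSeq positions the genes share only 171217802 to 171218845 of chromosome 1. On either strand, 53.2% of the 100-base stretches of *Nr1i3* transcripts recur in transcripts of other genes, a share that includes the overlap with *Tomm40l*. *Tomm40l* collected 949 to 1519 counts per liver, at 41.8 ± 1.97 CPM in the control group and 43.0 ± 7.07 CPM under MI-883 (log2 fold change 0.04, SE 0.102, adjusted p = 0.872). The library kit marks strand, but the annotation and strand setting of the counting are not given in the sources used here. The values of *Nr1i3* are uncertain for this reason, and the share of reads affected was not tested. Of the other 9 receptor genes, only *Nr1h3* shared exon bases with another gene, 34 bases with *Gm13783*.

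As a check of the genotype label, the mouse genes *Cyp3a11* and *Cyp3a25* of the Cyp3a cluster had 0 counts in the 5 control livers. In the MI-883-treated livers *Cyp3a11* reached at most 0.0342 CPM and *Cyp3a25* at most 0.106 CPM, at or under 3 counts per liver, which is the floor used here.

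*Rxra*, the shared partner (chromosome 2, 27676445 to 27763319), was read at 363, 412, 456, 370 and 454 CPM in the control livers and at 332, 430, 362, 473 and 426 CPM in the MI-883-treated livers. The MI-883 range reached past the control range at both ends. The means were 411 ± 44.5 and 405 ± 57.0 CPM (n = 5), a log2 fold change of -0.02 (SE 0.108, 95% interval -0.26 to 0.21, adjusted p = 0.939). This value changed sign, staying near 0, in 5 of 17 alternative settings.

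The oxysterol receptor *Nr1h3* (chromosome 2, 91184061 to 91202829) had the smallest p of the 10. It was read at 119, 111, 125, 126 and 125 CPM in the control livers and at 115, 111, 93.1, 115 and 99.5 CPM in the MI-883-treated livers. Control replicate 2, at 111 CPM, lay among the MI-883-treated livers, and the other 4 control livers were above all 5 of them. The means were 121 ± 6.38 and 107 ± 9.82 CPM (n = 5), a fold of 0.878 (log2 fold change -0.19, SE 0.0745, 95% interval -0.35 to -0.03). The unadjusted p was 0.0258 in edgeR and 0.0238 in the exact two-sided permutation test over livers, which can give no p under 0.00794 here. The edgeR adjusted p over all genes was 0.252, and it ranged from 0.180 to 0.457 over 17 alternative settings, so the difference did not pass in any of them.

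Its paralogue *Nr1h2* (chromosome 7, 44549616 to 44553968), which is expressed widely across tissues, was read at 38.4, 35.7, 42.1, 37.4 and 39.3 CPM in the control livers and at 35.3, 34.9, 38.1, 33.9 and 38.9 CPM in the MI-883-treated livers. It had the lowest fitted variation between livers of the 10, with a biological coefficient of variation of 8.48%, against 20.1% for *Nr1i3* and 19.8% for *Nr0b2*. The means were 38.6 ± 2.35 and 36.2 ± 2.15 CPM (n = 5), a log2 fold change of -0.09 (SE 0.0663, 95% interval -0.23 to 0.05, adjusted p = 0.540).

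The bile acid receptor *Nr1h4* (chromosome 10, 89454234 to 89533645) was read at 147, 166, 189, 199 and 192 CPM in the control livers and at 166, 191, 177, 202 and 179 CPM in the MI-883-treated livers. Control replicate 1 was the lowest liver, and the MI-883 range otherwise lay within or just above the control range. The means were 179 ± 21.5 and 183 ± 13.6 CPM (n = 5), a log2 fold change of 0.04 (SE 0.0902, 95% interval -0.16 to 0.23, adjusted p = 0.883).

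*Nr0b2*, the SHP gene and a target of FXR (chromosome 4, 133553376 to 133556686), was read at 47.8, 47.4, 85.6, 81.5 and 61.7 CPM in the control livers and at 58.8, 68.6, 48.2, 55.7 and 43.3 CPM in the MI-883-treated livers. It varied most between the control livers, with an SD of 27.9% of the mean, and control replicates 3 and 4 were above every MI-883-treated liver. The means were 64.8 ± 18.1 and 54.9 ± 9.78 CPM (n = 5), a fold of 0.848 (log2 fold change -0.24, SE 0.176, adjusted p = 0.543). The 95% interval of -0.62 to 0.14 on the log2 scale was among the widest of the 10, and its lower bound was the farthest from 0 of all their bounds.

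*Hnf4a*, the receptor that maintains hepatocyte identity (chromosome 2, 163506811 to 163572907), was read at 372, 472, 477, 356 and 470 CPM in the control livers and at 349, 487, 384, 514 and 410 CPM in the MI-883-treated livers. Control livers 1 and 4 and MI-883-treated livers 1, 3 and 5 lay at 349 to 410 CPM, the other 5 livers at 470 to 514 CPM, and none between. The means were 429.5 ± 60.1 and 428.6 ± 69.4 CPM (n = 5), a log2 fold change of -0.0030 (SE 0.124, 95% interval -0.27 to 0.26, adjusted p = 0.993).

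*Nr5a2*, which encodes LRH-1, an activator of bile acid synthesis genes (chromosome 1, 136842562 to 136960448), was read at 29.9, 31.5, 33.1, 28.1 and 33.4 CPM in the control livers and at 27.6, 34.9, 30.9, 32.0 and 33.8 CPM in the MI-883-treated livers. Both groups covered nearly the same range. The means were 31.2 ± 2.21 and 31.9 ± 2.83 CPM (n = 5), a log2 fold change of 0.03 (SE 0.0772, 95% interval -0.14 to 0.20, adjusted p = 0.881).

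*Ppara* (chromosome 15, 85734910 to 85806851) was read at 331, 348, 411, 366 and 403 CPM in the control livers and at 269, 344, 386, 335 and 426 CPM in the MI-883-treated livers. The lowest and the highest liver were both MI-883-treated. The means were 372 ± 34.5 and 352 ± 58.8 CPM (n = 5), a log2 fold change of -0.08 (SE 0.114, 95% interval -0.32 to 0.17, adjusted p = 0.772).

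**Figure D2:**
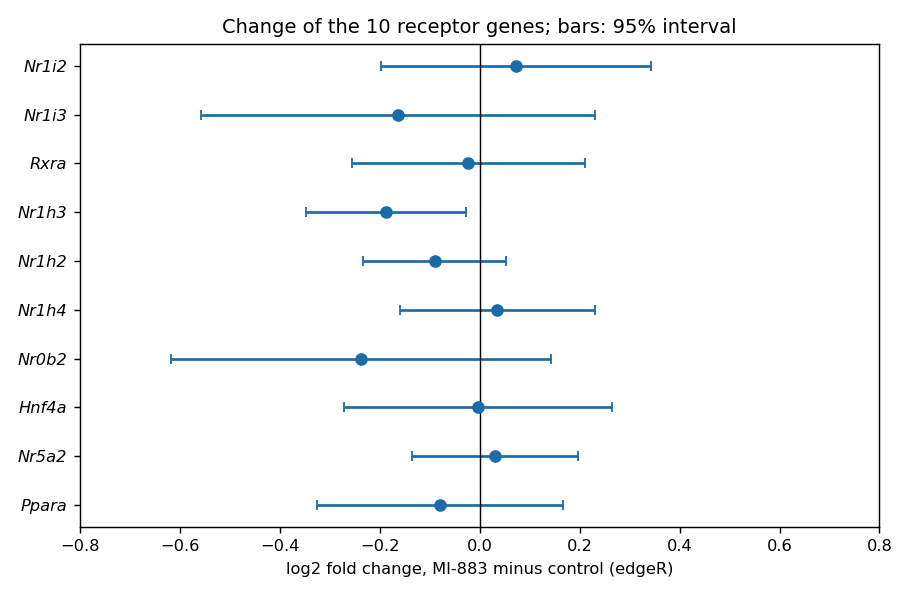
Log2 fold change (MI-883 minus control, edgeR, horizontal axis) of the 10 receptor genes with 95% intervals, from 5 livers per group. The interval of *Nr1h3*, -0.35 to -0.03, is the only one that leaves out 0, and it is not adjusted for the number of genes. The widest bound is that of *Nr0b2* at -0.62.

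Across the 10 genes, the median width of the 95% interval to either side was 0.239 on the log2 scale, and no bound lay farther from 0 than 0.619. A p that misses the threshold does not show that a level is the same in both groups, and the intervals give the sizes of change left possible by these livers.

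Levels between genes were compared per length, as CPM divided by the median length in kilobases of the gene's coding GENCODE transcripts (CPM per kb). In control livers the order was *Rxra* at 158 ± 17.1, *Ppara* at 148 ± 13.7, *Hnf4a* at 98.5 ± 13.8, *Nr1h4* at 90.0 ± 10.8, *Nr1h3* at 68.6 ± 3.60, *Nr0b2* at 57.2 ± 16.0, *Nr1h2* at 19.8 ± 1.20, *Nr5a2* at 11.8 ± 0.834, *Nr1i3* at 5.39 ± 1.19 and *Nr1i2* at 4.90 ± 0.962 CPM per kb (n = 5). The neighbours *Rxra* and *Ppara*, *Hnf4a* and *Nr1h4*, *Nr1h3* and *Nr0b2*, and *Nr1i3* and *Nr1i2* overlapped between control livers. The steps from *Ppara* to *Hnf4a*, *Nr1h4* to *Nr1h3*, *Nr0b2* to *Nr1h2*, *Nr1h2* to *Nr5a2* and *Nr5a2* to *Nr1i3* did not overlap, and each held within 10 of 10 livers. In MI-883-treated livers the order was the same except that *Nr1i2*, at 5.14 ± 0.449 CPM per kb, stood above *Nr1i3*, at 4.81 ± 0.995 CPM per kb, 2 genes whose ranges overlapped. Among 13185 tested genes with a length, *Rxra* lay at the 95.5 percentile of level per length, *Nr1i3* at the 51.2 and *Nr1i2* at the 49.1 percentile. The values of *Nr1i3* and *Nr1i2* are those of the mouse gene models, and *Tomm40l* covers 74.9% of the *Nr1i3* exon bases in GENCODE M21. The mRNA of the human receptors was not analysed, so these ranks do not place PXR and CAR among the receptors of these livers.

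**Figure D3:**
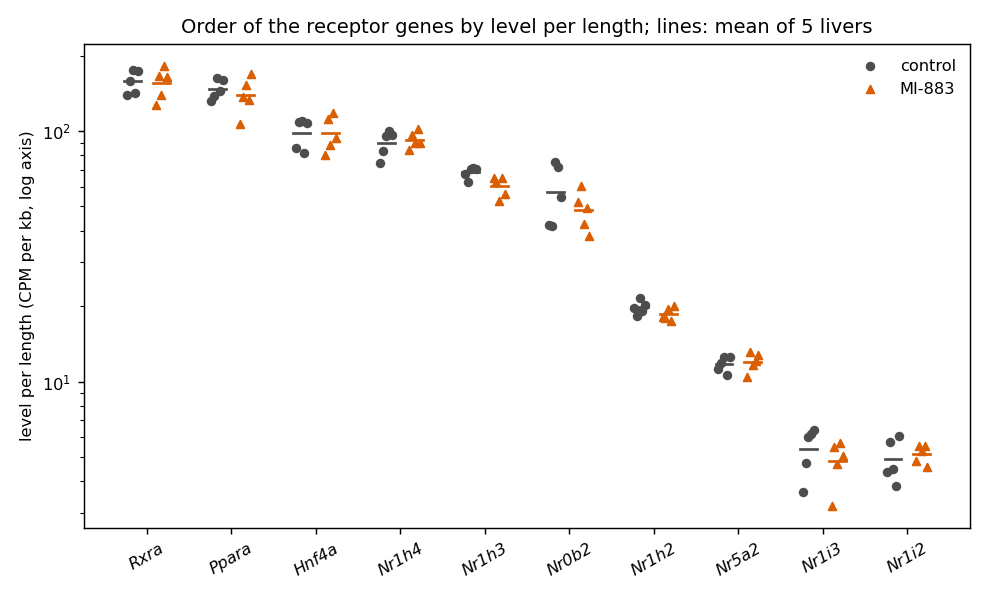
Level per length of the 10 receptor genes (CPM per kb, log axis) in control (circles) and MI-883-treated livers (triangles), with a line at the mean of 5 livers. The genes span from 158 CPM per kb for *Rxra* to 4.90 CPM per kb for *Nr1i2* in control livers, and each gene keeps its place in the MI-883-treated livers apart from the last pair. For this pair, *Nr1i3* and *Nr1i2*, the mouse gene models are shown and not the human receptor genes.

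The order within the upper 6 genes depends on the length used. With the union of all annotated exons as length, an alternative added after the values were seen, the order began with *Ppara* at 96.9, *Hnf4a* at 89.0, *Nr1h4* at 77.6 and *Rxra* at 75.3 CPM per kb. *Nr1i3* then came last at 1.69 CPM per kb, below *Nr1i2*, whose value stayed at 4.90 CPM per kb.

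Levels of the receptor genes were also compared between livers, after the group means were removed from log2 CPM. Of 45 pairs, 2 passed an exact permutation test of Pearson's r within groups (14400 arrangements, Benjamini-Hochberg adjusted p under 0.05). This count was unstable, at 0 with total counts as scaling and at 0 to 7 when a liver was left out, with 0 without control replicate 2, MI-883 replicate 1 or MI-883 replicate 2, 1 without control replicate 3 or 5 or MI-883 replicate 3 or 5, 3 without MI-883 replicate 4 and 7 without control replicate 4. *Nr1i3* and *Nr1h4* had r = 0.924 over 10 livers (p = 0.000347, adjusted p = 0.0156) and Spearman's rho = 0.927 (p = 0.00125, adjusted p = 0.0563), both by exact permutation. Without the 2 livers farthest from the median of *Nr1i3*, r was 0.930. Within each group, the liver lowest in one gene was lowest in the other, control replicate 1 at 5.03 and 147 CPM and MI-883 replicate 1 at 4.41 and 166 CPM for *Nr1i3* and *Nr1h4*. The relation did not pass when CPM was scaled by total counts in place of TMM factors (r = 0.892, adjusted p = 0.120, exact permutation test), nor without control replicate 2, MI-883 replicate 1 or MI-883 replicate 2 (adjusted p = 0.0781, 0.0547 and 0.0547). The TMM factor of the libraries, by which CPM is divided, moved with these and other receptor genes. Its r was -0.80 to *Nr1h4* (rho -0.76, adjusted p of r = 0.0222 over 10 genes, exact permutation test) and -0.91 without the 2 farthest livers. To *Nr1i3* its r was -0.68 (rho -0.78, adjusted p of r = 0.104, exact permutation test). Values for *Nr1h3* (-0.76), *Nr0b2* (-0.65) and *Rxra* (-0.64) were similar, while *Nr1h2* had 0.33. The part of this factor in the relation of *Nr1i3* and *Nr1h4* was not tested.

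The other pair was *Rxra* and *Hnf4a*, which passed in 2 of the 10 fits without a liver and not with total counts. Since the livers fell into 5 low and 5 high ones by *Hnf4a*, with too few in each for a correlation, the relation could not be tested within them, and no pooled value is given. *Rxra* lay at 332 to 426 CPM in the 5 livers low in *Hnf4a* and at 412 to 473 CPM in the 5 livers high in it.

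**Figure D4:**
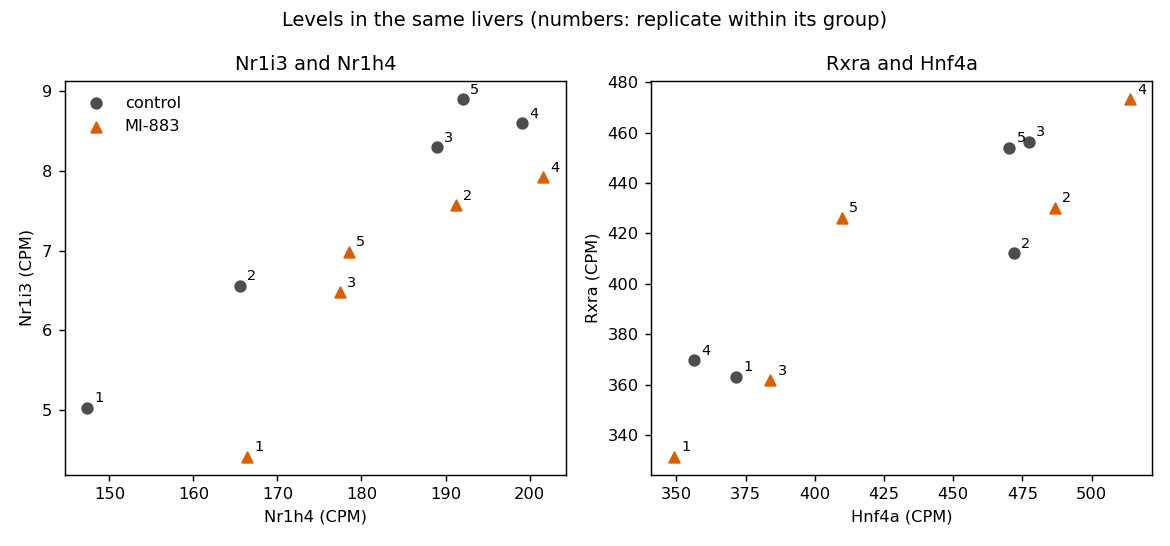
Levels of *Nr1i3* against *Nr1h4* (left) and of *Rxra* against *Hnf4a* (right) in CPM in the same livers, control as circles and MI-883 as triangles, numbered by replicate. On the left the points rise together from 5.03 and 147 CPM in control replicate 1. On the right no liver lies between 410 and 470 CPM of *Hnf4a*.

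By the rule for likeness, the gene whose level followed each receptor gene most closely (highest Pearson's r of group-centred log2 CPM over 10 livers, among 7787 or 7788 genes with a mean of at least 10 CPM) was named. It was *Hs6st1* for *Hnf4a* (r = 0.986), *Usp8* for *Ppara* (0.979), *Ylpm1* for *Nr5a2* (0.971), *Il11ra1* for *Nr1h3* (0.971), *Opa1* for *Nr1i3* (0.970), *Sbno2* for *Rxra* (0.969), *Farp1* for *Nr1h2* (0.967), *Scarf1* for *Nr0b2* (0.956), *Stim2* for *Nr1h4* (0.950) and *Sart3* for *Nr1i2* (0.918). Each is the highest value among all genes compared, the livers share their depth and scaling factors, and the values are a description.

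The further nuclear receptors of the mouse gave a similar picture. Of 39 genes on this list, 36 were in the table and 29 were tested. In edgeR 0 passed, and 4 had an unadjusted p under 0.05 (against 15.6% of all tested genes). DESeq2 called 2 of the 29 (against 3.5% of all genes), both as higher, *Nr2c1* and *Rarb*. *Nr2c1*, which encodes the orphan receptor TR2, was at 16.6 to 19.3 CPM in the control and at 20.7 to 24.1 CPM in the MI-883-treated livers, ranges that did not overlap. Its log2 fold change was 0.30 (SE 0.0687), with an adjusted p of 0.0581 in edgeR and 0.00825 in DESeq2. *Rarb*, a retinoic acid receptor, was at 6.69 ± 1.53 and 9.78 ± 1.43 CPM (n = 5; log2 fold change 0.54, SE 0.155, adjusted p = 0.129 in edgeR and 0.0335 in DESeq2). Both were chosen for mention after their values were seen. By level per length in control livers *Nr2f6* at 50.5, *Nr1d2* at 26.4, *Esrra* at 23.6 and *Nr1d1* at 22.7 CPM per kb were among the highest of this list, all under the 57.2 CPM per kb of *Nr0b2* and above the 19.8 of *Nr1h2*.

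The list of coregulators, the proteins that receptors recruit to activate or silence genes, held 20 genes. Another list held 6 genes of the complex that holds CAR in the cytoplasm or of its release. Of both lists, 0 genes passed in edgeR and 0 in DESeq2, against 1.03% and 3.5% of all tested genes. An unadjusted edgeR p under 0.05 was found for 0 of them, against 15.6% of all tested genes. The coregulator *Ppargc1b* had the smallest adjusted p of these (0.337), at 6.59 ± 1.58 CPM without and 5.00 ± 1.16 CPM with MI-883. Of the CAR complex, *Hsp90ab1* was at 1002 ± 95.3 and 1046 ± 128 CPM and *Dnajc7*, which encodes the CAR retention protein, at 54.8 ± 1.36 and 52.3 ± 3.72 CPM (n = 5).

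Of the lists of target genes, that of CAR and PXR held most of the calls. Of 32 CAR and PXR targets, 30 were tested, and 18 rose and 0 fell (edgeR, against 0.764% and 0.265% of all genes), with a median log2 fold change of 0.70. *Cyp2b10*, the classical CAR target in mouse, ranged from 24.4 to 44.3 CPM among control livers and from 634 to 1375 CPM among those given MI-883 (log2 fold change 4.80, SE 0.247, adjusted p = 3.63e-07). The glutathione transferase gene *Gstm3* (log2 fold change 3.24, adjusted p = 0.000526) and the cytochrome P450 gene *Cyp2c55* (3.20, adjusted p = 1.01e-08) were the next largest. This list was chosen with earlier results of these data known. The mouse gene models of *Nr1i2* and *Nr1i3* had intervals of -0.20 to 0.34 and -0.56 to 0.23. The mRNA of the human receptors was not analysed, and a relation between receptor mRNA and the targets was not tested.

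Of 16 LXR targets, 0 rose and 1 fell in edgeR (against 0.764% and 0.265% of all genes). The 1 that fell was *Srebf1*, which encodes the SREBP-1 activator of fatty acid synthesis. It was read at 441, 385, 611, 488 and 505 CPM in the control livers and at 276, 308, 384, 356 and 299 CPM in the MI-883-treated livers. The groups met but did not overlap, and the log2 fold change was -0.58 (SE 0.126, adjusted p = 0.0470 in edgeR). The adjusted p lay close to the threshold and missed it without control replicate 3, 4 or 5, without MI-883 replicate 1, 2, 4 or 5 (edgeR adjusted p = 0.0581 to 0.130) and with total counts as scaling (0.0661), while the log2 fold change stayed at -0.49 to -0.62 in these fits. DESeq2 called 3 of the 16 LXR targets (against 3.5% of all genes), all as lower, *Srebf1*, *Scd1* and *Apoe*. *Scd1*, a fatty acid desaturase gene, had a log2 fold change of -0.48 without overlap of the groups (adjusted p = 0.105 in edgeR and 0.00286 in DESeq2), and *Apoe*, which encodes apolipoprotein E, one of -0.34 (0.224 in edgeR and 0.0442 in DESeq2). The cholesterol transporter *Abca1* was at 161 ± 10.9 and 140 ± 7.13 CPM (log2 fold change -0.20, SE 0.0677, adjusted p = 0.178).

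Of 17 tested genes of the FXR and SHP axis, 0 passed in edgeR, and 4 had an unadjusted p under 0.05 (against 15.6% of all tested genes). DESeq2 called 1 of the 17 (against 3.5% of all genes), *Apoa1*, as lower (log2 fold change -0.51, adjusted p = 0.0755 in edgeR and 0.00066 in DESeq2). *Cyp7a1*, the rate-limiting enzyme of bile acid synthesis, was at 71.9 ± 40.4 CPM without and 43.5 ± 7.62 CPM with MI-883 (adjusted p = 0.367). *Abcb11*, the bile salt export pump, was at 520 ± 47.0 and 472 ± 8.97 CPM (adjusted p = 0.387).

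Of 28 tested PPARA targets, 1 rose and 0 fell in edgeR (against 0.764% and 0.265% of all genes). The 1 that rose was *Pdk4*, which encodes a kinase that limits glucose oxidation. It was read at 16.2, 15.03, 6.13, 18.5 and 12.7 CPM in the control livers and at 38.0, 26.6, 38.3, 25.3 and 38.4 CPM in the MI-883-treated livers, without overlap (log2 fold change 1.27, SE 0.23, adjusted p = 0.0198). Without control replicate 5 or MI-883 replicate 5 the adjusted p missed the threshold (edgeR, 0.0623 and 0.0624), with log2 fold changes of 1.25 and 1.22. DESeq2 called 2 of the 28 (against 3.5% of all genes), *Pdk4* as higher and *Fabp1* as lower. *Fabp1* had a log2 fold change of -0.29 without overlap of the groups (adjusted p = 0.176 in edgeR and 0.0177 in DESeq2). *Cyp4a14*, which PPAR alpha ligands induce, was at 511 ± 255 and 222 ± 149 CPM (log2 fold change -1.20, SE 0.433, adjusted p = 0.208 in edgeR). Of 20 HNF4A targets, 0 passed in edgeR, and 6 had an unadjusted p under 0.05 (against 15.6% of all tested genes). DESeq2 called 1 of the 20 (against 3.5% of all genes), *Ugt2b1*, as higher.

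**Figure D5:**
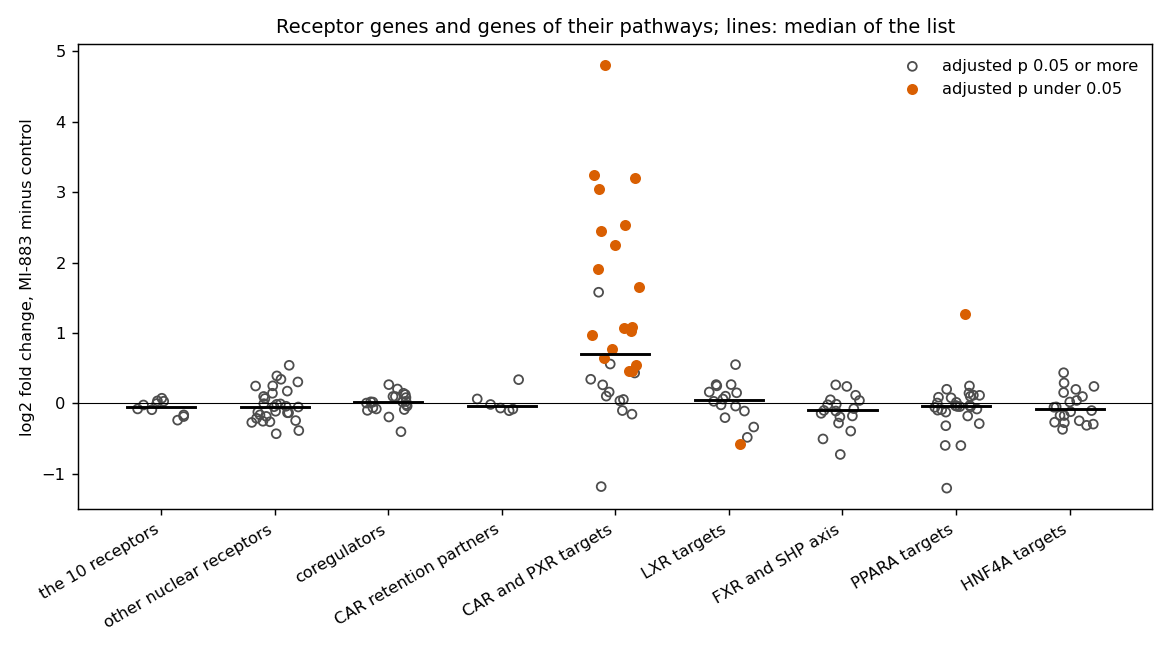
Log2 fold change (MI-883 minus control, vertical axis) of the tested genes of each list, 1 point per gene, with filled points for an edgeR adjusted p under 0.05 and a line at the median. The 10 receptor genes lie between -0.24 and 0.07 with 0 filled points, while 18 of 30 CAR and PXR targets are filled and reach 4.80.

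Library totals were 23513665 to 36221514 counts and did not separate the groups (exact permutation p = 0.111). The 8 hepatocyte markers, which include *Alb*, *Ttr* and *Apoa1*, summed to 77470 to 89430 CPM among control livers and to 64660 to 78220 CPM among those given MI-883. These ranges overlapped at their ends, and the exact permutation p was 0.0159 on the log2 scale. In edgeR 0 of the 8 passed singly. DESeq2 called 1 as lower, *Apoa1*, which is also on the list of the FXR and SHP axis. Summed markers of cholangiocytes, Kupffer cells and leukocytes, stellate cells and endothelial cells also overlapped between the groups (exact permutation p = 0.270, 0.984, 0.135 and 0.357). Singly, 7 of 8 hepatocyte markers had a log2 fold change below 0, with a median of -0.26. Above 0 were 5 of 5 tested cholangiocyte (median 0.55) and 8 of 10 Kupffer and leukocyte markers (0.05). So were 7 of 8 stellate (0.30) and 7 of 8 endothelial markers (0.24). Outside the hepatocyte list 0 passed in edgeR, and DESeq2 called 1 endothelial marker as higher. The summed hepatocyte markers were far above those of the other cell types, and every marker except the cholangiocyte gene *Cldn4* passed the minimum of 60 counts. In bulk tissue fewer cells of a type and less RNA per cell cannot be told apart. The part of these marker shifts in the receptor values was not tested.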

How the data were processed

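Liver RNA of 10 mice was sequenced with a strand-marking kit on a NovaSeq6000 in paired 150-base reads. The authors aligned reads with STAR to mm10 and counted them per gene with featureCounts, and the submitters' processing notes also name fastp 0.23.0. The deposited values are raw counts per gene under Entrez numbers. The aligner version, annotation and strand setting are not given in the sources used here. Symbols of 16644 of 16647 genes came from RefSeq (GRCm38.p6) and lengths from GENCODE M21.

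Livers were grouped by their treatment label. Genes with at least 60 counts summed over 10 livers (13219) were tested with edgeR 4.0.16 in R 4.3.3 (TMM, quasi-likelihood, Benjamini-Hochberg threshold 0.05), and 3428 were below this minimum. SE is the log2 fold change divided by the square root of F. DESeq2 1.42.0 and 16 further settings were alternatives. Permutation tests of mean log2 CPM were exact (252 arrangements) and two-sided. CPM per kb uses the median length of coding transcripts. The floor of 3 counts was 0.0828 to 0.128 CPM and, like all counting intervals, covers counting error only. The fits were tested on simulated data.

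All 10 receptors were named. Of a list, called genes were named up to 6, otherwise the 3 with the largest change in each direction, of the further nuclear receptors also those highest per length in control livers, and single well-known targets were added after their values were seen. A gene that this rule names is not reported here. Members and lists were chosen with earlier results of these data known, and no list is independent evidence. Of lists written for other nuclear receptors, 3 genes had no row in the table used here.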

Additional observations from a re-analysis of the deposited data

How the results depend on the processing

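The count of 0 receptor genes called held under all 17 settings, which were 7 other fits and 10 that left out a liver. Signs reversed only near 0. With total counts *Rxra* was at 0.017 and *Hnf4a* at 0.034, and with 60 counts in every sample *Hnf4a* was at 0.012. Leaving out a liver gave log2 fold changes of -0.0040 to 0.16 for *Nr1i2*, -0.085 to 0.041 for *Rxra*, -0.027 to 0.077 for *Nr1h4*, -0.076 to 0.062 for *Hnf4a*, -0.0046 to 0.078 for *Nr5a2* and -0.16 to 0.0037 for *Ppara*. The signs of *Nr1i3*, *Nr1h3*, *Nr1h2* and *Nr0b2* stayed below 0 in all 17. Total counts shifted the median of all genes by 0.044 on the log2 scale.

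Over all genes, 136 were called by edgeR, 463 by DESeq2 and 62 to 203 without a liver, lowest without MI-883 replicate 5. DESeq2 called 2 further nuclear receptors (both higher), 3 LXR targets (all lower) and 1 gene of the FXR and SHP axis (lower). It also called 2 PPARA targets (1 higher and 1 lower) and 1 HNF4A target (higher). With 60 counts in every sample 1 further nuclear receptor was called, and with total counts 0 LXR targets and 1 gene of the FXR and SHP axis. Without a liver, the calls were 0 to 1 for further nuclear receptors, LXR targets, the FXR and SHP axis and PPARA targets, and 14 to 19 for CAR and PXR targets.

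The deviations of livers with the same replicate number correlated at -0.12 to 0.36, highest for replicate 1, and none correlated best with its own number. The numbers were therefore not treated as pairs, and whether same-numbered livers shared a batch was not tested. With the replicate number as a block, 89 genes, 0 receptor genes, 16 CAR and PXR targets and 0 PPARA targets were called, with *Pdk4* at a log2 fold change of 1.31 (edgeR adjusted p = 0.0545).

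The correlation of *Nr1i3* and *Nr1h4* was 0.892 with total counts (exact permutation adjusted p = 0.120) and 0.874 to 0.977 without a liver. With the union of exons as length, chosen after seeing the data, the control level per length moved beyond 1 SD for 7 of the 10 receptor genes, those of *Nr1i3*, *Rxra*, *Nr1h3*, *Nr1h2*, *Nr1h4*, *Nr5a2* and *Ppara*. At 129 to 297 counts per liver, the depth limits *Nr1i3* more than the other receptor genes.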
